A study of Mus musculus with 4 samples.

Results

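The cytosolic ribosomal protein genes encode the proteins that, with ribosomal RNA, build the small and large subunits of the ribosome. They were taken from the deposited table by their symbols: *Rps* or *Rpl* followed by a number and, where present, a short suffix, together with *Rplp0*, *Rplp1*, *Rplp2* and *Rpsa*, with names ending in -ps left out. This gave 87 of the 39186 genes in the table, 35 of the small and 52 of the large subunit. The annotation calls 82 of them protein-coding and 5 pseudogenes (*Rps4l*, *Rpl6l*, *Rps3a2*, *Rps3a3* and *Rpl32l*), and *Rpl10l* was not analysed here. The members lie on 19 chromosomes.

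The samples were LSK cells sorted from the fetal liver of C57BL/6 mice. LSK stands for lineage-negative, Sca-1-positive and c-Kit-positive, a gate that holds haematopoietic stem cells and early progenitors. RNA-seq was run on 2 *Pich*-KO and 2 *Pich*-WT samples. *Pich* (symbol *Ercc6l*), on the X chromosome, encodes a DNA translocase that binds ultrafine DNA bridges in mitosis, and the KO line carries a germline TALEN deletion early in the coding sequence that is predicted to leave a short peptide. The deletion is present in every cell of the embryo, not in blood cells alone, and the controls were labelled wild type. The labels give neither embryo age nor whether the 2 samples of a group came from separate embryos. The p-values thus measure the spread between these samples, which may be technical in *Pich*-KO. In *Pich*-WT, reads on Y-linked genes numbered 2753 in replicate 1 and 0 in replicate 2. These 2 samples were therefore not technical repeats of the same material.

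Ribosomal proteins are made in near-equal numbers, and their genes are among the most strongly transcribed housekeeping genes. Their mRNAs begin with a C followed by a run of pyrimidines, the terminal oligopyrimidine (TOP) tract, through which mTORC1 and the RNA-binding protein LARP1 control their translation together. In blood formation they are known above all from Diamond-Blackfan anaemia, in which loss of a single copy of one of several ribosomal protein genes causes a failure of red cell precursors. Free RPL5 and RPL11, bound to 5S ribosomal RNA, inhibit MDM2 and so stabilise p53.

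The start sites of members with the largest and the smallest changes are shown here, because the TOP tract is the feature by which these mRNAs are best known as a group. Each line gives 20 bases before the annotated start and 20 bases from the start base onwards, read 5′ to 3′ from RefSeq on GRCm38.p6. Capitals mark a C followed by at least 4 C or T that begins within 5 bases of the annotated start.
Rps27l, chr9:66946066-66946105, plus strand: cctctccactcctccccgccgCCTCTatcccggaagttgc
Rpl5, chr5:107900508-107900547, plus strand: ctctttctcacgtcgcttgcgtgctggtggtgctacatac
Rps28, chr17:33824543-33824582, minus strand: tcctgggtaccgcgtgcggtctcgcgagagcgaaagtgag
Rpl15, chr14:18270967-18271006, minus strand: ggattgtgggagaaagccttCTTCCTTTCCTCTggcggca
Rpl14, chr9:120571497-120571536, plus strand: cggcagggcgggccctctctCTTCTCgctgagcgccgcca
Rps9, chr7:3704021-3704060, plus strand: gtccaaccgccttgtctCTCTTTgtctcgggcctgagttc
Rplp0, chr5:115559447-115559486, plus strand: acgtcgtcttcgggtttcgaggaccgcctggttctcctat
*Rps27l*, *Rpl5* and *Rps28* belong to the members with the largest rises, and *Rpl15*, *Rpl14*, *Rps9* and *Rplp0* to those with the smallest rises past the threshold. Tracts were found in both sets, and both sets held at least 1 member with none at this distance from the annotated start.

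The 87 genes as a group were higher in *Pich*-KO LSK cells. By limma on log2(normalized count + 1), with Benjamini-Hochberg adjustment over all 32428 genes tested, 62 members passed an adjusted p of 0.05 as higher and 0 as lower. Of all genes tested, 7.58% were called higher and 9.6% lower. The log2 fold change was positive for 85 members, with a median of 0.49, a fold of 1.40, and a middle 50% from 0.39 to 0.65. The median over all genes tested was 0.02. Both *Pich*-KO values lay above both *Pich*-WT values in 82 members, and this held for 28.9% of all genes. No member had both *Pich*-KO values below both *Pich*-WT values. A normalized count is the number of reads on a gene divided by 1 size factor per sample.

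These genes are strongly expressed, so they were also read against all genes above a floor of expression. The floor does not match the genes for level. A mean normalized count of at least 1000 was reached by 76 members, and 60 of these were called higher while 75 had a positive log2 fold change. Among all 4115 genes at that level, 31.3% were called higher and 60.3% had a positive log2 fold change, with a median of 0.14. The standard error of the log2 fold change of these 76 members had a median of 0.11. The calls depend on the error model. With no trend in limma's prior variance no gene of the table passed, and 15 members had an unadjusted p under 0.05, against 73 with the trend. On the recovered reads, edgeR called 67 of 85 members and DESeq2 61 of 87 higher, against 18.6% and 6.69% of all genes. With 1 sample left out, limma called no gene of the table at all, and edgeR called 77 members higher without *Pich*-KO replicate 1, 61 without *Pich*-KO replicate 2, 27 without *Pich*-WT replicate 1 and 41 without *Pich*-WT replicate 2. In these same edgeR fits 20.8%, 17.3%, 9.32% and 9.31% of all genes were called higher, against 18.6% with all samples.

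**Figure D1:**
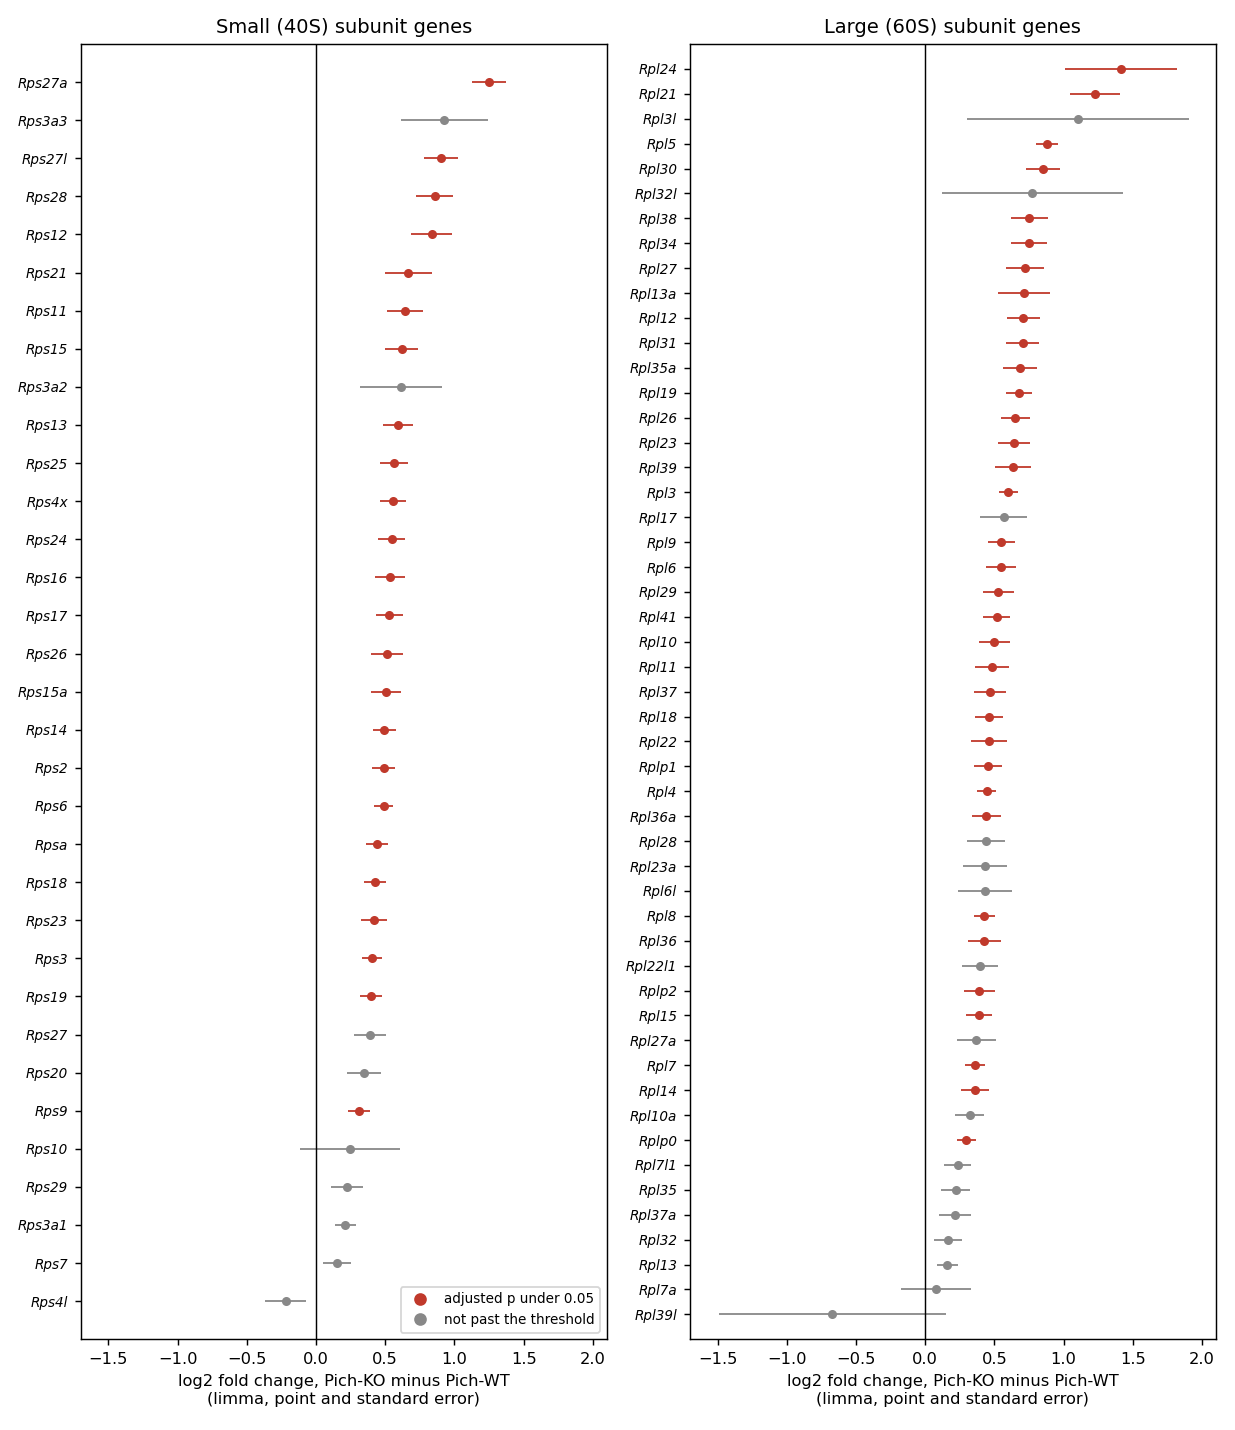
Log2 fold change of 84 of the 87 genes, *Pich*-KO minus *Pich*-WT, with its standard error from limma; small subunit genes are on the left and large subunit genes on the right, and red points have an adjusted p under 0.05. All but 2 points lie right of 0, and the red points run from 0.30 to 1.41.

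**Figure D2:**
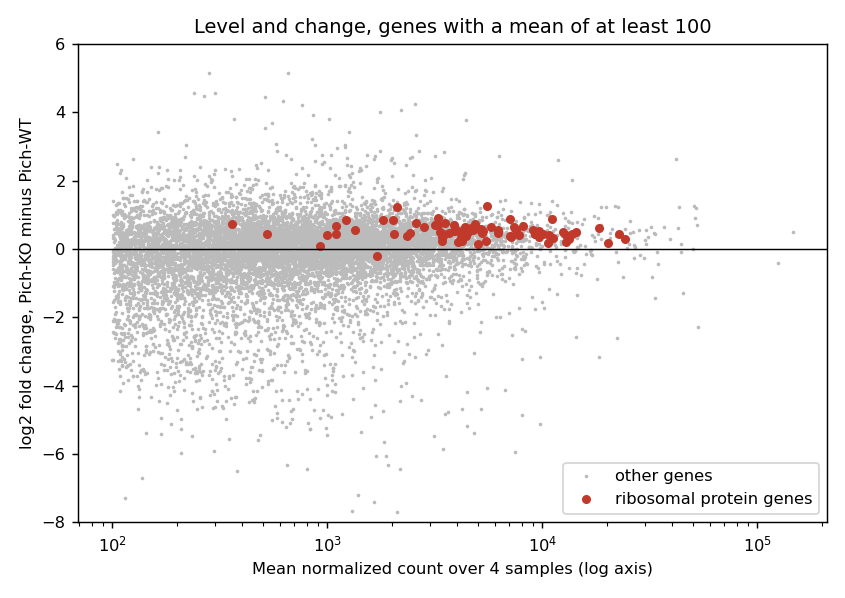
Mean normalized count over the 4 samples (log axis) against the log2 fold change for genes with a mean of at least 100, the ribosomal protein genes in red and all others in grey. The red points run from -0.22 to 1.25, all but 1 of them above 0, while other genes of the same level lie on both sides of 0.

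The share of all normalized counts that fell on the 87 genes gives the same group in a single value per sample. It was 3.34% and 3.82% in the *Pich*-KO samples against 2.62% and 2.77% in the *Pich*-WT samples. The groups did not overlap, with 3.58% ± 0.34 (SD, n = 2) against 2.70% ± 0.11 (SD, n = 2), a ratio of 1.33. The exact two-sided permutation test gave p = 0.333, the smallest that 2 samples against 2 allow. Small subunit genes took 1.41% and 1.61% of the counts in *Pich*-KO against 1.10% and 1.16% in *Pich*-WT. Large subunit genes took 1.93% and 2.21% in *Pich*-KO against 1.53% and 1.61% in *Pich*-WT. The ratio of large to small subunit counts within a sample was 1.36 and 1.37 in *Pich*-KO against 1.40 and 1.39 in *Pich*-WT, a difference in the second decimal with no overlap (exact permutation p = 0.333).

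**Figure D3:**
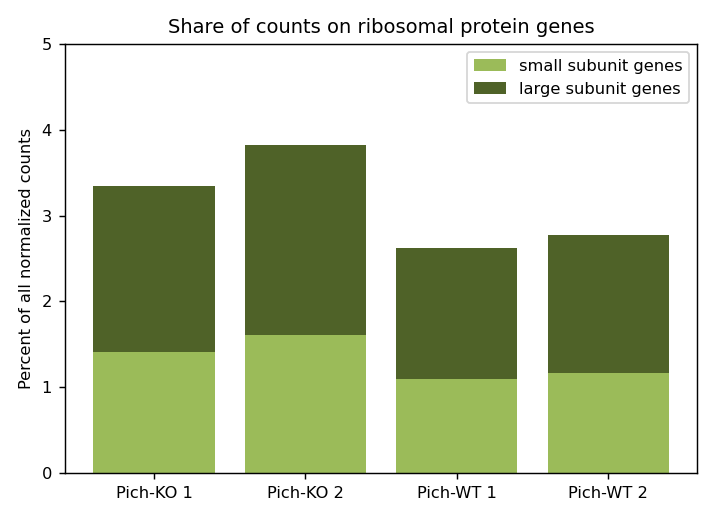
Percent of all normalized counts on small and large subunit genes, stacked, in each of the 4 samples. Both *Pich*-KO bars, at 3.34% and 3.82%, stand above both *Pich*-WT bars, at 2.62% and 2.77%.

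The *Pich*-KO samples also differed from each other. Replicate 2 was above replicate 1 in 82 of the 87 members, with a median log2 difference of 0.24, whereas 50.4% of all genes were higher in replicate 2. In *Pich*-WT, replicate 2 was above replicate 1 in 49 members, with a median difference of 0.02. Taken pair by pair, the median log2 difference of *Pich*-KO replicate 1 was 0.39 from *Pich*-WT replicate 1 and 0.35 from *Pich*-WT replicate 2. That of *Pich*-KO replicate 2 was 0.65 and 0.61. Even for the lower *Pich*-KO sample, 83 and 84 of the 87 genes lay above the *Pich*-WT sample it was set against. The members of 1 sample therefore moved together and are not independent replicates of the comparison.

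Among small subunit genes, 26 of 35 (74.3%) were higher, with a median log2 fold change of 0.50. In 33 both *Pich*-KO values lay above both *Pich*-WT values. Of all genes tested, 7.58% were called higher and 28.9% had no such overlap in that direction. *Rps27a*, which encodes ubiquitin fused to a small subunit protein, had the largest rise among members with a mean of at least 100. Its normalized counts were 7269.5 and 8258.4 in *Pich*-KO against 2911.9 and 3638 in *Pich*-WT. Both *Pich*-KO samples lay far above both *Pich*-WT samples, with a log2 fold change of 1.25 ± 0.12 (SE) and an adjusted p of 0.000423 by limma. The gene lies at chr11:29545846-29548109 on the minus strand, in the coordinates of the file, which match GRCm38. *Rps28*, near the mRNA exit of the subunit, had 2110.5 and 2594.0 against 1364.5 and 1223, a log2 fold change of 0.86 ± 0.14 (SE, adjusted p = 0.00376 by limma). At the other end, *Rps9*, which helps set decoding accuracy, rose from 10169.7 and 9717 to 11626.9 and 13045.2, a log2 fold change of 0.31 ± 0.08 (SE, adjusted p = 0.0363 by limma). That call was lost with a pseudocount of 0.1, no filter, CPM scaling and DESeq2 (adjusted p from 0.0597 to 0.0805). In each of these genes the groups did not overlap. *Rps28* lies at chr17:33819027-33824562 on the minus strand.

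Among large subunit genes, 36 of 52 (69.2%) were higher, with a median log2 fold change of 0.46. In 49 both *Pich*-KO values lay above both *Pich*-WT values. The shares over all genes tested were 7.58% and 28.9%. *Rpl21* had normalized counts of 2863.1 and 3001.0 in *Pich*-KO against 1536.4 and 1022 in *Pich*-WT. The *Pich*-WT samples lay far apart here, and the log2 fold change was 1.23 ± 0.18 (SE, adjusted p = 0.00273 by limma). *Rpl5*, which carries 5S ribosomal RNA into the subunit together with *Rpl11*, had 13653.4 and 14945.8 in *Pich*-KO against 7940.9 and 7582 in *Pich*-WT. Its log2 fold change of 0.88 ± 0.08 (SE) had the lowest adjusted p of the named members, 0.000263 by limma. *Rpl11* rose less, from 3777.0 and 3725 to 4652.9 and 5921.3, with a log2 fold change of 0.48 ± 0.12 (SE, adjusted p = 0.0293 by limma). The difference between the rises of *Rpl5* and *Rpl11* was not tested. *Rpl5* lies at chr5:107900502-107909005 on the plus strand and *Rpl21* at chr5:146832890-146837032 on the plus strand.

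The smallest rises past the threshold were mostly those of large subunit genes. *Rplp0*, the base of the stalk that recruits elongation factors, had normalized counts of 25747.1 and 27671.6 in *Pich*-KO against 22342.5 and 21108 in *Pich*-WT, giving a log2 fold change of 0.30 ± 0.07 (SE, adjusted p = 0.0181 by limma). That call was lost with no filter (adjusted p = 0.0501 by limma) and by DESeq2 (adjusted p = 0.0804). The other stalk proteins, *Rplp1* and *Rplp2*, had log2 fold changes of 0.46 and 0.39 (adjusted p = 0.0185 and 0.0438 by limma). *Rpl14*, *Rpl7* and *Rpl15*, all structural proteins of the large subunit, had log2 fold changes of 0.36, 0.36 and 0.39 past the threshold. With no filter on the mean, *Rpl14* (adjusted p = 0.109 by limma) and *Rpl15* (adjusted p = 0.0642 by limma) were no longer called, and *Rpl14* was also lost with a pseudocount of 0.1 and with CPM scaling. Their *Pich*-KO samples were above their *Pich*-WT samples without overlap, for *Rpl7* at 10504.5 and 11074.1 against 8374.6 and 8407.

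**Figure D4:**
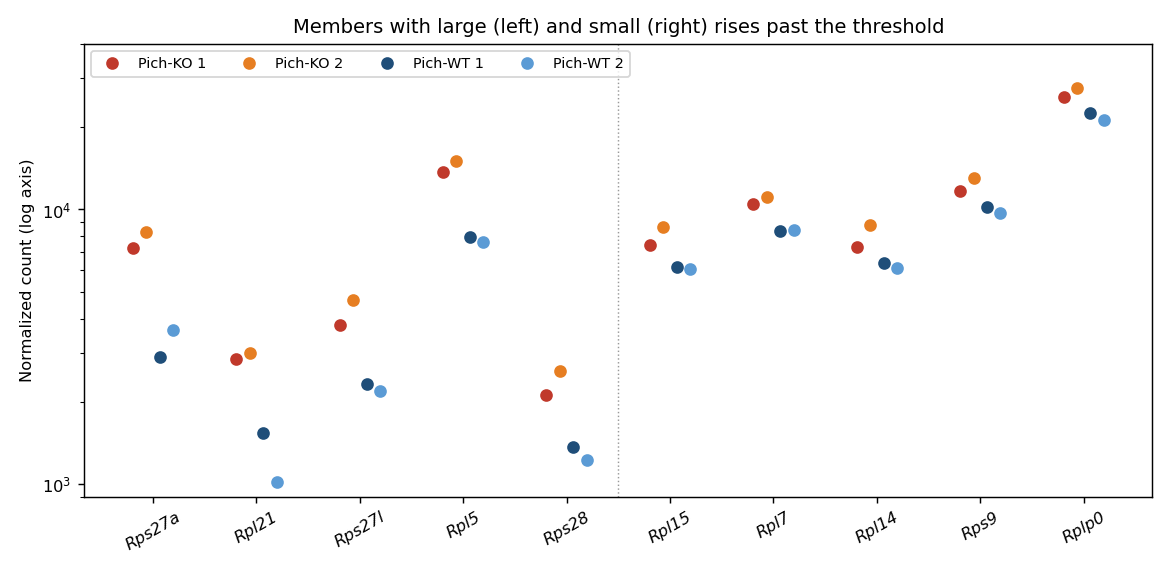
Normalized counts (log axis) in each of the 4 samples for 5 of the 6 strongest and 5 of the 6 weakest rises past the threshold among members with a mean of at least 100. *Pich*-KO samples (red and orange) lie above *Pich*-WT samples (dark and light blue) in all 10 genes, by more for the genes on the left.

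The 23 members with a positive log2 fold change that did not pass the threshold included 8 with an adjusted p between 0.05 and 0.1. Groups overlapped in 5 members, namely *Rpl39l*, *Rps4l*, *Rpl7a*, *Rpl32* and *Rps10*, which were singled out after their values were seen. *Rps7*, a Diamond-Blackfan gene whose protein also binds MDM2, had normalized counts of 4840.5 and 5684.8 in *Pich*-KO against 4682.0 and 4782 in *Pich*-WT, with a log2 fold change of 0.15 ± 0.10 (SE, adjusted p = 0.401 by limma). *Rpl35* and *Rps29* had log2 fold changes of 0.22 and 0.22 (adjusted p = 0.235 and 0.270 by limma). In these 3 genes *Pich*-KO replicate 1 lay closer to the *Pich*-WT samples than replicate 2 did.

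All 19 listed Diamond-Blackfan anaemia genes had a positive log2 fold change, with a median of 0.50. Of these, 14 were higher and 0 lower, and in 18 both *Pich*-KO values lay above both *Pich*-WT values, as in 28.9% of all genes tested. The share called higher, 73.7%, was near the 71.3% of all 87 members, against 7.58% of all genes. *Rps19*, the gene most often mutated in the disease, had normalized counts of 11504.7 and 12864.4 in *Pich*-KO against 9352.3 and 9126 in *Pich*-WT, giving a log2 fold change of 0.40 ± 0.08 (SE, adjusted p = 0.0116 by limma). The largest values in the list were those of *Rpl27* (0.72), *Rps28* (0.86) and *Rpl5* (0.88), all past the threshold.

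Levels were compared between genes per kilobase of the gene length in the table. For most members that length equals all annotated exon bases of the gene, so the ranking also depends on the annotation. *Rplp0* had the highest mean, 14598 normalized counts per kilobase, followed by *Rps3a1* with 13123, *Rpl4* with 11358, *Rpl36* with 11283 and *Rpl32* with 10972. None of these 5 was among the 6 largest rises. *Rpl4* rose from 19600.9 and 19014 to 24999.9 and 27563.6, a log2 fold change of 0.44 (adjusted p = 0.00354 by limma), and *Rpl36* had a log2 fold change of 0.43 (adjusted p = 0.0446 by limma), a call lost with a pseudocount of 0.1, no filter and CPM scaling (adjusted p from 0.0805 to 0.107). *Rps3a1* and *Rpl32*, with log2 fold changes of 0.21 and 0.16, did not pass (adjusted p = 0.0984 and 0.335 by limma). Over the 80 members with a mean of at least 100, which share libraries, the log2 mean and the log2 fold change had a Pearson's r of -0.16 and a Spearman's rho of -0.23. By mean normalized count, 7 of the 100 and 21 of the 200 highest genes of the table were members.

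A few ribosomal protein genes have a paralog, a second gene that resembles the main gene. In some cases, not all, its protein can take the same place in the ribosome. Each paralog was set against its main gene within a sample as a log2 ratio, which does not depend on the scaling. *Rps27l*, at chr9:66946086-66949516 on the plus strand, is a p53-induced paralog of *Rps27*. Its normalized counts were 3814.2 and 4673.1 in *Pich*-KO against 2324.2 and 2194 in *Pich*-WT, with a log2 fold change of 0.90 ± 0.12 (SE, adjusted p = 0.00161 by limma). *Rps27* itself had 2455.2 and 2850.9 against 2114.0 and 1931, and a log2 fold change of 0.39 (adjusted p = 0.0594 by limma). The log2 ratio of *Rps27l* to *Rps27* was 0.64 and 0.71 in *Pich*-KO against 0.14 and 0.18 in *Pich*-WT, higher by 0.51 with no overlap. The pseudogene-annotated *Rps4l* was set against the X-linked *Rps4x*. *Rps4l* had 1787.7 and 1365.2 in *Pich*-KO against 1901.4 and 1737 in *Pich*-WT, which overlap, and its log2 fold change of -0.22 ± 0.15 (SE) did not pass (adjusted p = 0.404 by limma). *Rps4x* rose from 6947.6 and 7643 to 10005.0 and 11473.1. Their log2 ratio was -2.48 and -3.07 in *Pich*-KO against -1.87 and -2.14 in *Pich*-WT, a difference of -0.77 with no overlap, which was -0.48 without *Pich*-KO replicate 2 and -1.07 without *Pich*-KO replicate 1. Each of these pairs gave p = 0.333 in the exact two-sided permutation test, and p = 0.667 after adjustment over the 6 pairs tested.

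The other 4 pairs overlapped between groups. The log2 ratio differed by -0.06 for *Rpl22l1* to *Rpl22*, by -0.13 for *Rpl7l1* to *Rpl7*, by -1.30 for *Rpl39l* to *Rpl39* and by 0.50 for *Rpl3l* to *Rpl3* (exact permutation p = 0.667 for each). *Rpl3l*, a striated muscle paralog, and *Rpl39l*, a testis-enriched paralog, had normalized counts under 10 and under 30 in every sample, so that their ratios rest on few reads. Leaving out 1 sample moved the *Rpl39l* difference between -2.24 and -0.37 and the *Rpl3l* difference between -0.16 and 1.17, and a pseudocount of 0.1 put the latter at 0.94.

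Reads of a ribosomal protein gene can be hard to place, since the genome holds many processed copies of these genes. The share of 50-base stretches of a member's transcripts that also occur in the GENCODE M21 transcripts of another gene, on either strand, was under 10% for 16 members and higher for 71. In the first set 12 of 16 were higher, with a median log2 fold change of 0.45, and in the second 50 of 71, with a median of 0.50. Over 80 members the shared share and the log2 fold change had a Pearson's r of -0.07 and a Spearman's rho of 0.02. The 255 ribosomal protein pseudogene rows of the table together took 0.118% and 0.136% of the counts in *Pich*-KO against 0.0873% and 0.0930% in *Pich*-WT. Of the 181 such rows tested, 12 were higher and 0 lower. That is 6.63% called higher, against 7.58% of all genes. The log2 fold change was positive for 150 of these rows and negative for 31, with a median of 0.54. As a share of the member counts, the pseudogene rows amounted to 3.53% and 3.55% in *Pich*-KO against 3.33% and 3.35% in *Pich*-WT.

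Some members had far fewer counts than a ribosomal protein gene is known for, and they are reported as uncertain. They were picked after their values were seen. *Rpl24* had normalized counts of 42.5 and 38.6 in *Pich*-KO against 12.5 and 17 in *Pich*-WT, with the largest log2 fold change of all members, 1.41 ± 0.40 (SE, adjusted p = 0.0490 by limma). Of its transcript stretches 51.8% occur in those of other genes, and 47.0% of its exon bases overlap the gene *Gm28037* on the same strand. *Rps10* had 54.5 and 104.6 against 60.2 and 67, with 28.7% of its exon bases under other genes on either strand and 20.6% on the same strand. *Rpl13a* had 399.2 and 500.2 against 253.2 and 292, a log2 fold change of 0.71 (adjusted p = 0.0368 by limma), with 35.4% of its exon bases under other annotated genes on the same strand. In all, 9 members had at least 10% of their exon bases under another gene on the same strand.

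Introns of ribosomal protein genes often carry small nucleolar RNA (snoRNA) genes, which guide ribosomal RNA modification. An annotated snoRNA gene lay within 30 of the members. Of these, 22 were higher, with a median log2 fold change of 0.52, and of the 57 members without one 40 were higher, with a median of 0.48. These shares, 73.3% and 70.2%, were near the 71.3% of all 87 members, against 7.58% of all genes.

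A RefSeq start site was found for 63 of the 87 members. A C followed by at least 4 pyrimidines began exactly at the start base in 14 of them, 22.2%, against 3.01% of all 27025 genes with an entry. Within 5 bases of the start it was found in 30 members, 47.6%, against 21.2% of all genes. Of the 30 members with a tract within 5 bases, 22 (73.3%) were higher, with a median log2 fold change of 0.49. Of the 33 with none there, 25 (75.8%) were higher, with a median of 0.50. Over all genes tested this share was 7.58%. The split depends on the annotated start, since a tract further off is not counted. The *Rpl5* line above opens with a C followed by pyrimidines, outside that distance. In the window from 250 bases before to 50 after the start, on both strands, CCGGAA, the core bound by ETS factors, occurred in 55.6% of members and 16.7% of all genes. The longer CCGGAAGT, which contains it and is bound by GABP, occurred in 19.0% against 4.31%. AAGATGGC, a YY1 motif, occurred in 9.52% against 3.19%, GGGCGG, an SP1 motif, in 60.3% against 38.2%, and TATAAA in 12.7% against 15.7%. In the start sites printed above, *Rps27l* carries both the tract and CCGGAAGT, the latter near the end of the printed line.

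The rest of the translation machinery was read from lists that partly overlap each other, and their counts stand against the 7.58% of all genes, or 31.3% of genes with a mean of at least 1000, that were called higher. Of 4 ribosomal proteins named outside the *Rps* and *Rpl* series, 2 were higher. *Rack1*, a scaffold on the small subunit, rose from 9599.2 and 9424 to 15975.5 and 17526.2, a log2 fold change of 0.81 (adjusted p = 0.000305 by limma), and *Fau*, a ubiquitin-like fusion, by 0.66 on the log2 scale (adjusted p = 0.0145 by limma). Of 34 initiation factors 23 were higher and 0 lower, with a median of 0.42. The largest were *Eif4a2*, a helicase, at 1.00, *Eif2s1*, the alpha subunit of eIF2, at 0.79 and *Eif6*, an anti-association factor of the large subunit, at 0.69. Of 10 elongation factors 6 were higher and 0 lower, with a median of 0.64. *Eef1a1*, which delivers aminoacyl-tRNA and is itself a TOP mRNA, did not pass, with 50972.8 and 49275.2 against 49761.6 and 51639, a log2 fold change of -0.02 (adjusted p = 0.884 by limma).

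Of 23 further TOP mRNAs, 18 were higher and 0 lower, with a median log2 fold change of 0.60. *Gas5*, a snoRNA host gene, had normalized counts of 5746.9 and 8737.0 in *Pich*-KO against 2628.2 and 2839 in *Pich*-WT, giving a log2 fold change of 1.37 (adjusted p = 0.00139 by limma). *Npm1*, a nucleolar chaperone of ribosome assembly, had 28087.7 and 33399.6 against 12509.6 and 13067, a log2 fold change of 1.26 (adjusted p = 0.000101 by limma). *Tpt1* and *Ybx1* were at -0.09 and 0.02 and did not pass. Within this class the log2 fold changes ran from -0.09 to 1.37.

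Of 20 genes of the mTORC1 and LARP1 control of TOP mRNAs, 8 were higher and 1 lower, with a median of 0.31. That share of 40% stands against 7.58% of all genes and 31.3% of all genes with a mean of at least 1000. Not all genes of the list reach that mean. *Larp1* had normalized counts of 907.5 and 1035.6 in *Pich*-KO against 398.6 and 352 in *Pich*-WT, giving a log2 fold change of 1.37 (adjusted p = 0.000763 by limma). *Larp4* and *Mtor* had log2 fold changes of 1.33 and 1.14. *Deptor*, an inhibitor of mTOR, fell, from 256.3 and 341 to 144.0 and 109.1, a log2 fold change of -1.23 (adjusted p = 0.0102 by limma). These are mRNA levels and say nothing of kinase activity or of translation.

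Of 17 chaperones and importers of ribosomal proteins and factors of the 5S particle, 13 were higher and 0 lower, with a median of 0.60. *Ipo7*, which imports ribosomal proteins into the nucleus, had 3738.9 and 3479.6 against 1187.1 and 1044, a log2 fold change of 1.70 (adjusted p = 8.9e-05 by limma). *Mdm4*, an inhibitor of p53, had a log2 fold change of 1.61 and *Grwd1*, a chaperone of RPL3, one of 1.02, both past the threshold. *Trp53* and *Mdm2*, the pair on which free RPL5 and RPL11 act, had log2 fold changes of 0.04 and 0.10 and did not pass (adjusted p = 0.837 and 0.661 by limma). Of 16 genes of ribosome rescue and quality control, 5 were higher and 1 lower. The share of higher calls, 31.25%, stands against 7.58% of all genes and 31.3% of all genes with a mean of at least 1000. *Ltn1*, the ubiquitin ligase of stalled large subunits, had a log2 fold change of 1.50, and *Rnf14*, a ligase that clears trapped factors, one of -0.60. Mitochondrial ribosomal protein genes, which build a separate ribosome, were higher in 37 of 77, with 76 positive and a median of 0.45.

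**Figure D5:**
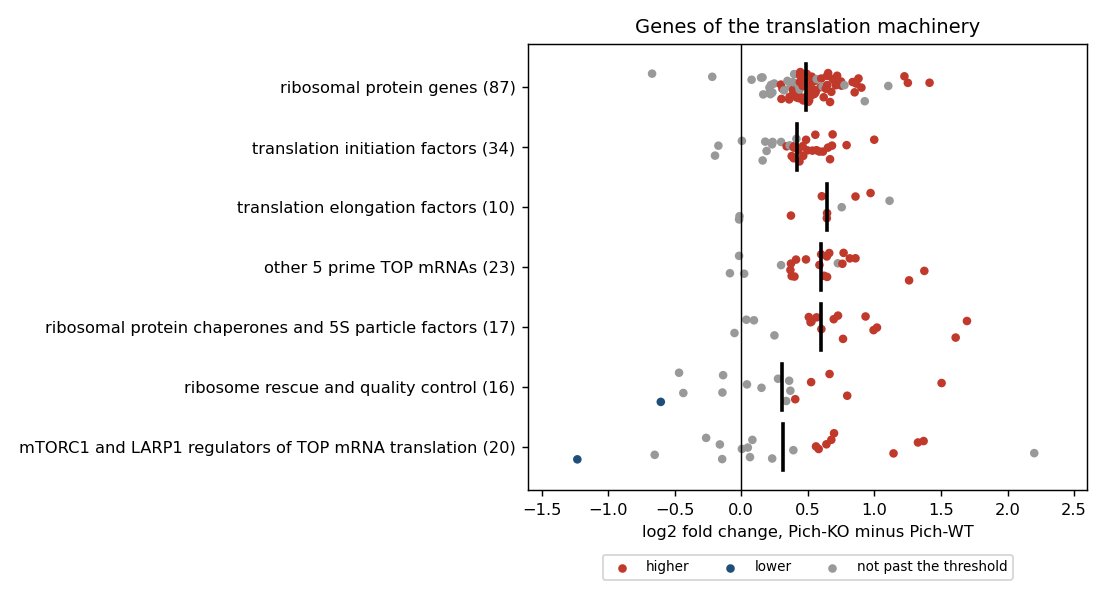
Log2 fold change, *Pich*-KO minus *Pich*-WT, of each gene (points, spread vertically at random) in the ribosomal protein genes and 6 related lists, with the number of genes in parentheses; red is higher, blue lower and grey not past the threshold, and black bars are medians. The medians lie between 0.31 and 0.64, and the grey point at 2.20 is *Eif4ebp3*, with 0 reads in both *Pich*-WT samples, so that its position depends on the pseudocount.

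RNA of markers of several cell types differed between groups, and these values stand beside every result above. Cell composition itself was not measured. The LSK markers *Kit* and *Ly6a* (Sca-1) were present in all samples. Of the 10 LSK markers 1 was higher in *Pich*-KO, *Ly6a*, with a log2 fold change of 1.74. The stem cell genes *Hlf*, *Mecom*, *Slamf1* and *Gata2*, 4 of the 10, were lower. *Kit* (0.54), *Cd48* (0.31), *Cd34* (-0.08), *Flt3* (-0.53) and *Meis1* (-0.57) did not pass. In all, 3 of the 10 log2 fold changes were positive and 7 negative. All 12 macrophage markers were lower, with a median log2 fold change of -5.42. Their summed normalized counts were 9208 and 8057 in *Pich*-KO against 62762 and 64987 in *Pich*-WT. Of 10 erythroid markers 9 were lower, with sums of 33310 and 36015 against 199189 and 140585, and of 8 hepatoblast markers 5 were lower, with sums of 3037 and 2554 against 4788 and 4258. The 8 lymphoid and myeloid markers summed to 56847 and 101484 against 14393 and 16657, most of it *Mpo*, a granule enzyme of myeloid progenitors. *Mpo* alone of the 8 was called, with a log2 fold change of 2.63, while 5 had a negative one and the median was -0.09. No marker was at 0 in any sample. Their part in the ribosomal protein result was not tested. With the marker genes, but not the other RNA of those cell types, taken out of the total, the members took 3.36% and 3.86% of the counts in *Pich*-KO against 2.67% and 2.81% in *Pich*-WT. In such bulk samples, more RNA of a gene in each cell and more cells that express it cannot be told apart.

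Each sample had 14703215 to 20933919 reads on genes, of which 431780 to 562062 lay on the members. Counting error is thus small for most members. Over the whole table, with genes of very few reads left out, replicates differed by more than counting error. Their chi-square divided by its degrees of freedom was 14.7 in *Pich*-KO and 8.18 in *Pich*-WT. It was not computed for the members alone. *Ercc6l* itself had normalized counts of 1142.0 and 1232.2 in *Pich*-KO against 772.1 and 661 in *Pich*-WT. The transcript of the deleted allele is counted too, so its level does not check the genotype. *Pich*-WT replicate 2 had 0 reads on 4 Y-linked genes, against 1607 to 2848 in the other samples, so the samples are not matched for sex.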

How the data were processed

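RNA-seq libraries (TruSeq, total RNA) of sorted fetal liver LSK cells were analysed, 2 *Pich*-KO and 2 *Pich*-WT. The authors deposited 1 table whose values are a signal: read counts on genes divided by 1 size factor per sample. Whole reads were recovered from these values for 100% of entries (tolerance 0.01). Its group means, fold changes and p-values of the authors' own comparison were not used. Submitters' processing notes name Bowtie 0.12.2, mm8 and mm9. The counter and annotation are not given in the sources used here. Gene coordinates equal those of GENCODE M21 on GRCm38 for 97.8% of the genes found there, including 85 of 87 members.

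The table was fitted with limma 3.58.1 (R 4.3.3) on log2(value + 1), prior variance following the mean, genes with a mean of at least 1, Benjamini-Hochberg adjustment over all genes. Fold changes are on that scale and understate low genes. Single values per sample were compared by exact two-sided permutation tests. edgeR 4.0.16 and DESeq2 1.42.0 on recovered reads were alternatives, with others of scaling, filter and prior.

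Members and lists were chosen with earlier results of these data known. Named members were those with the 6 largest and 6 smallest log2 fold changes past the threshold (mean of at least 100, no overlap), the 5 highest per kilobase, the paralogs, the 3 largest and 3 smallest Diamond-Blackfan genes, and at most 3 at each end of other lists. The single values of 3 members are not reported here. Other genes named, such as *Rps19*, *Rpl11*, *Rplp1*, *Rplp2*, *Eef1a1*, *Trp53* and *Mdm2*, were added for their known roles or after their values were seen. Start sites and motifs came from RefSeq promoters on GRCm38.p6.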

Additional observations from a re-analysis of the deposited data

How the results depend on the processing

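The number of members called higher, 62, stayed between 44 and 68 under a pseudocount of 0.1 (51), no filter (44), at least 10 counts in every sample (68), CPM scaling (51), TMM (63), upper quartile (63), edgeR (67) and DESeq2 (61). In that order, 6.45%, 4.70%, 21.1%, 6.53%, 8.20%, 8.33%, 18.6% and 6.69% of all genes were called higher. The main fit called 7.58%, so the member counts are not on one footing. The number of members called higher was 0 with no trend in the prior variance, where limma called no gene at all. It was 36 at a log2 fold change of at least 0.5, and 12 among the 16 members with under 10% of stretches shared. Leaving out 1 sample gave from 0 (limma, 1 residual degree of freedom, no gene of the table called; 21 to 77 members with an unadjusted p under 0.05) to 77 (edgeR, chosen after seeing the data, 27 without *Pich*-WT replicate 1 and 41 without *Pich*-WT replicate 2, with all genes called higher falling from 18.6% to 9.32% and 9.31%). A lone sample is there assumed to vary like the other group. Members called lower were 0 throughout except 1, *Rps4l*, by edgeR without *Pich*-KO replicate 1 (leaving out 1 sample: 0 to 1). The median log2 fold change stayed positive, from 0.37 to 0.64. The difference in the share of counts was 0.88 percentage points, and 0.64 to 1.12 with 1 sample left out. The log2 ratio of *Rpl22l1* to *Rpl22* turned from -0.06 to 0.028 without *Pich*-WT replicate 1 and that of *Rpl3l* to *Rpl3* from 0.50 to -0.16 without *Pich*-KO replicate 1, within a range up to 1.17; the cause was not tested. Of single named genes, the call was lost 92 times over all alternatives and reversed in none.

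With the replicate number as a block, 69 members were higher, as were 9.63% of all genes. The labels share only a number between groups, and the deviations of same-numbered samples had a correlation of 0.001 over 16280 genes. Over the 87 members, which moved together within a sample, the correlation was -0.58. This pairing was not used. Depth limits the members with a mean under 100, 7 in all.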
